A study of Mus musculus with 28 samples.

Results

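The expression of 10 cartilage genes was examined in the tibialis anterior (TA) muscle of mouse models of centronuclear myopathy. The genes were chosen by symbol, and all 10 were found by their Ensembl identifiers in both deposited count tables, among 55359 genes for the *Bin1* cohort and 55416 for the *Dnm2* cohort. They comprise the transcription factor *Sox9* (ENSMUSG00000000567), the proteoglycan *Acan* (ENSMUSG00000030607) and its link protein *Hapln1* (ENSMUSG00000021613), the collagens *Col2a1* (ENSMUSG00000022483), *Col9a1* (ENSMUSG00000026147) and *Col10a1* (ENSMUSG00000039462), and the matrix proteins *Chad* (ENSMUSG00000039084), *Matn1* (ENSMUSG00000040533), *Matn3* (ENSMUSG00000020583) and *Cnmd* (ENSMUSG00000022025).

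Cartilage is made by chondrocytes, whose formation depends on SOX9 and on its partners SOX5 and SOX6. These factors drive the genes of the cartilage matrix, a network of type II collagen fibrils decorated with type IX collagen and filled with aggrecan, which the link protein holds on hyaluronan. When chondrocytes enlarge ahead of bone formation they turn on type X collagen. Healthy skeletal muscle contains no cartilage, but tendons and their attachments to bone express several of these genes, and SOX9 is also made by cells outside the skeleton.

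RNA was sequenced from TA muscles of 28 mice at 8 weeks of age, in 7 groups of 4. The *Dnm2* cohort holds wild-type (WT) mice given placebo, WT mice given tamoxifen, *Dnm2* S619L/+ mice given placebo and *Dnm2* S619L/+ mice given tamoxifen. *Dnm2* S619L/+ mice carry a point mutation in 1 allele of *Dnm2*, which encodes the membrane-cutting GTPase dynamin 2. The *Bin1* cohort holds WT mice given placebo, *Bin1* mck-/- mice given placebo and *Bin1* mck-/- mice given tamoxifen. *Bin1* mck-/- mice lack the membrane-shaping protein BIN1 in muscle fibers, since the promoter of the muscle creatine kinase gene drives the deletion, while other cells keep it, and they have no group of WT mice on tamoxifen. All mice were of the C57BL/6N strain, and the diet carried tamoxifen, which binds estrogen receptors. The library protocol used 300 ng RNA and a fragmentation time of 2 min for the *Dnm2* cohort, but 350 ng and 8 min for the *Bin1* cohort, so that mouse model and library protocol cannot be told apart. Mice are named by group and replicate number, and the WT mice of the *Bin1* cohort carry the numbers 5 to 8.

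Levels are given as CPM, the reads of a gene in every 1000000 reads on genes, after TMM scaling of the library sizes. A change was called when the Benjamini-Hochberg adjusted p of edgeR's quasi-likelihood test was under 0.05 over all genes tested in the cohort, 15439 in the *Dnm2* cohort and 14841 in the *Bin1* cohort. Before testing, edgeR's filter removed genes that did not reach 0.347 CPM (*Dnm2* cohort) or 0.326 CPM (*Bin1* cohort) in at least 4 mice. Of the 10 genes, 7 passed this filter in the *Dnm2* cohort and 4 in the *Bin1* cohort. *Col10a1* passed only through *Dnm2* S619L/+ mice on tamoxifen, *Hapln1* only through tamoxifen mice, and *Acan* through tamoxifen mice and 1 WT placebo mouse. Their separations and calls in comparisons with tamoxifen mice, and counts of called members, are a description and no support for a pattern. The same holds for such counts over other lists of genes. Which groups carried the genes of those lists past the filter was not examined. Because whole muscle was sequenced, more cells of a type and more RNA per cell cannot be told apart.

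Depth ranged from 15586333 to 109710886 reads on genes per mouse in the *Dnm2* cohort and from 24671835 to 35136327 in the *Bin1* cohort, so that 1 read of a gene is worth more in some mice than in others. The 10 genes of the skeletal muscle list were present in every mouse, with a summed level of 90903 to 199713 CPM. *Bin1* itself had 51.6 to 62.1 CPM in *Bin1* mck-/- mice on placebo and 36.0 to 49.5 CPM on tamoxifen, against 521 to 556 CPM in their WT mice. Reads of the Y-linked gene *Ddx3y* above 1 CPM were found in 2 mice each of the WT placebo (mice 2 and 3), WT tamoxifen (mice 3 and 4) and *Dnm2* S619L/+ placebo (mice 2 and 3) groups, and in none of the *Dnm2* S619L/+ tamoxifen or *Bin1* cohort mice. Sex therefore differs in part between the groups of the *Dnm2* cohort. A pair of libraries stood apart by markers of bone, taken as the summed level of 15 osteoblast and osteocyte genes. *Dnm2* S619L/+ tamoxifen mouse 4 had 547 CPM against 3257 to 7791 CPM in the other mice of its group, and *Bin1* mck-/- tamoxifen mouse 2 had 3079 CPM against 92.4 to 497 CPM.

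Promoters of 8 of the 10 genes were found by symbol in a table of RefSeq sequences of the mouse build GRCm38.p6, while the counts were made on mm39. The promoters of *Acan* and *Hapln1*, the pair of members with the largest response to tamoxifen in WT mice, are shown beside those of *Col10a1* and *Chad*, which hold a searched motif. Each sequence runs 5′ to 3′ on the strand of the gene and ends at the base before its annotated start. Capitals mark the SOX core motif ACAAAG and the TATA motif TATAAA. *Acan* lies at chr7:79052976-79053225 (plus strand), *Hapln1* at chr13:89540386-89540528 (plus strand, 143 bases), *Col10a1* at chr10:34389731-34389980 (plus strand) and *Chad* at chr11:94564797-94565046 (plus strand).

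Acan: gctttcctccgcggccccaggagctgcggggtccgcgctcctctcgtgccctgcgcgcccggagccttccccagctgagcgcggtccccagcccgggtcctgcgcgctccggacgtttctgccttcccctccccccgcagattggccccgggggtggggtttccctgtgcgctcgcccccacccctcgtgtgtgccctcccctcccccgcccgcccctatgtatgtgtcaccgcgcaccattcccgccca
Hapln1: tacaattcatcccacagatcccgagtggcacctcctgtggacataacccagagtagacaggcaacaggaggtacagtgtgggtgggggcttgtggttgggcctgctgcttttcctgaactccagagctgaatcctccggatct
Col10a1: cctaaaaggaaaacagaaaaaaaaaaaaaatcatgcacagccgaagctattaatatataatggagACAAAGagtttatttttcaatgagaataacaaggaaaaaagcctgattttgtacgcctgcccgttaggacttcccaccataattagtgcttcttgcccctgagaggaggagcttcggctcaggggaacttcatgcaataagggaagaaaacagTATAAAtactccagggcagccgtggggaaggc
Chad: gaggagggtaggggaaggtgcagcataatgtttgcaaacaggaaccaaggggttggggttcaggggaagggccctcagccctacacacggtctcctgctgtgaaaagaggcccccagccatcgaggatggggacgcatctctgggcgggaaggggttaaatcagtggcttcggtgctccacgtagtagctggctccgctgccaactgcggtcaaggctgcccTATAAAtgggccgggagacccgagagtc

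The SOX core motifs ACAAAG and ACAATG were searched on both strands and TATAAA on the given strand, in the 250 bases before the start of each promoter entry. For *Hapln1* the searched bases run past the 143 bases shown, which end before the outermost annotated start of the gene. ACAAAG was found in *Col10a1* alone of the 8 genes, starting 185 bases before the start, and it occurs in 16.5% of the 32851 promoters of the table. TATAAA was found in *Col10a1* at 32 bases and in *Chad* at 28 bases before the start. On either strand it occurs in 12.4% of all promoters, a share that was not counted for the given strand alone. The *Acan* promoter held none of these motifs and consisted of 74.4% G and C. A match of letters describes the sequence and does not show that a factor binds there.

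*Sox9* was higher in both placebo disease models than in their WT mice. In the *Dnm2* cohort, *Sox9* had 1.16, 1.67, 1.58 and 1.70 CPM in the 4 WT placebo mice and 4.59, 5.996, 5.61 and 6.64 CPM in the 4 *Dnm2* S619L/+ placebo mice. In the *Bin1* cohort, it had 1.12, 0.487, 1.25 and 1.08 CPM in the WT mice and 3.64, 5.18, 2.63 and 4.42 CPM in the *Bin1* mck-/- placebo mice. Every disease mouse was above every WT mouse of its cohort, as was the case for 14.3% of all genes tested in the *Dnm2* cohort and 9.09% in the *Bin1* cohort. The fitted log2 fold change was 1.91 ± 0.26 (SE, n = 4 per group) in *Dnm2* S619L/+ mice, with an edgeR adjusted p of 0.000157, and the mean level was 3.74 times that of WT. It was 2.00 ± 0.38 in *Bin1* mck-/- mice, with an edgeR adjusted p of 0.0174 and a mean level of 4.03 times that of WT. The former call held under all 23 alternatives tried, also among the 10 mice of the cohort without *Ddx3y* (log2 fold change of 2.00, edgeR adjusted p of 0.0172). Of those 10 mice, only 2 were WT placebo and 2 were *Dnm2* S619L/+ placebo mice. The call in *Bin1* mck-/- mice was lost when *Bin1* mck-/- placebo mouse 2 or 4 or WT mouse 6 or 8 was left out, with adjusted p of up to 0.0702. The difference of the log2 fold changes between the cohorts was −0.10 ± 0.44, which did not pass the test (edgeR adjusted p of 0.955).

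Tamoxifen brought no called change of *Sox9* in any genotype. In WT mice on tamoxifen, *Sox9* had 1.61, 3.03, 1.36 and 2.52 CPM, which overlapped WT placebo (log2 fold change of 0.50 ± 0.26, edgeR adjusted p of 0.159). In *Dnm2* S619L/+ mice on tamoxifen it had 6.34, 4.18, 3.69 and 4.35 CPM, which overlapped their placebo group (−0.29 ± 0.24, edgeR adjusted p of 0.477). In *Bin1* mck-/- mice on tamoxifen it had 2.31, 4.33, 1.24 and 2.96 CPM, and 2 of these mice were below every placebo mouse (−0.54 ± 0.36, edgeR adjusted p of 0.407). The level in tamoxifen-fed *Dnm2* S619L/+ mice stayed above WT placebo in every mouse, as did 12.7% of all genes, with a log2 fold change of 1.62 ± 0.25 (edgeR adjusted p of 0.000495). Against WT mice that also received tamoxifen, the log2 fold change was 1.12 ± 0.25 (edgeR adjusted p of 0.0228), and this call was lost under 5 of 23 alternatives, with adjusted p of up to 0.104. Tamoxifen-fed *Bin1* mck-/- mice overlapped their WT placebo mice, with a log2 fold change of 1.46 ± 0.38, which was not called (edgeR adjusted p of 0.0904). It passed with DESeq2, without the filter on low counts and without *Bin1* mck-/- tamoxifen mouse 3. The interaction of genotype and tamoxifen in the *Dnm2* cohort was −0.79 ± 0.35 for *Sox9* (edgeR p of 0.0389, adjusted p of 0.346).

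**Figure D1:**
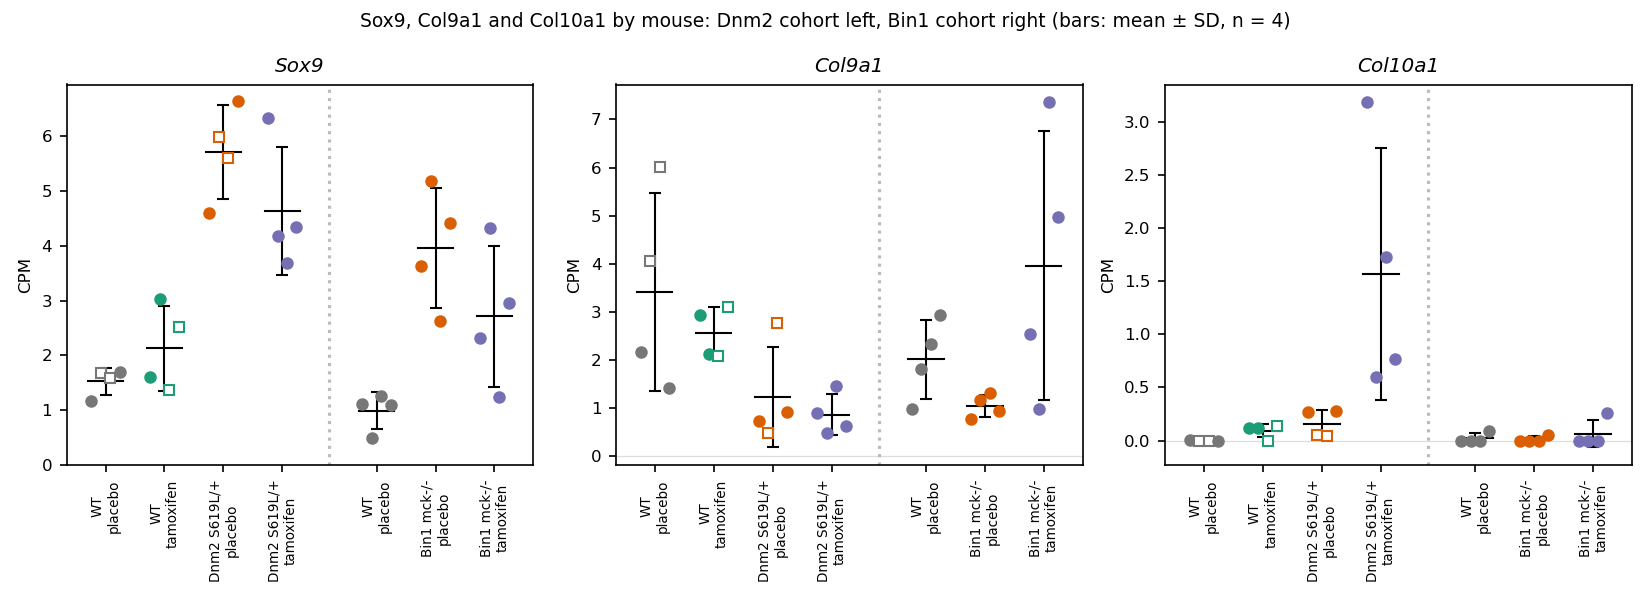
*Sox9*, *Col9a1* and *Col10a1* in each mouse. The y axis is CPM on a linear scale, each point is 1 of the 4 mice of a group, open squares are mice with reads of the Y-linked gene *Ddx3y* above 1 CPM, and bars are mean ± SD. All *Sox9* values of the placebo disease groups lie above the WT placebo values of the same cohort, and *Col10a1* above 0.5 CPM was seen in the 4 *Dnm2* S619L/+ tamoxifen mice alone.

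Other genes of chondrocytes were described in the same placebo mice. Of 13 tested regulators of chondrocytes, 1 was called higher and 2 lower in *Dnm2* S619L/+ mice on placebo, a share close to the 21.9% called over all genes. *Gdf5*, a growth factor of joints and tendons, was higher (log2 fold change of 1.68 ± 0.55, edgeR adjusted p of 0.0400), while *Bmp4* (−0.70 ± 0.21, adjusted p of 0.0270) and *Sox6*, the partner of *Sox9* (−0.50 ± 0.16, adjusted p of 0.0328), were lower. In *Bin1* mck-/- mice none of 13 was called by edgeR and 1 had an unadjusted p under 0.05, *Sox6* (−0.68 ± 0.19, adjusted p of 0.0615). Of 16 tested genes of the cartilage matrix outside the 10, 1 was called in each model, where 21.9% and 2.61% of all genes were called. This was *Cilp*, a matrix protein of cartilage and tendon, which rose by 5.24 ± 0.47 on the log2 scale in *Dnm2* S619L/+ mice (edgeR adjusted p of 9.11e-06) and by 4.02 ± 0.50 in *Bin1* mck-/- mice (edgeR adjusted p of 0.00855).

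Several tendon genes were higher in the same mice. Of 10 tendon genes, 6 were called higher in *Dnm2* S619L/+ mice, against 21.9% of all genes called, among them *Scx*, the transcription factor of tendon cells (log2 fold change of 1.87 ± 0.38, edgeR adjusted p of 0.00320), *Egr1* (2.66 ± 0.55, adjusted p of 0.00393) and the matrix protein *Thbs4* (1.98 ± 0.43, adjusted p of 0.00488). In *Bin1* mck-/- mice 2 of 10 were called higher, against 2.61% of all genes called, *Cilp*, which stands on both lists, and *Egr1* (log2 fold change of 2.39 ± 0.51, edgeR adjusted p of 0.0443). The summed level of the tendon genes was 747 to 2037 CPM in the 4 *Dnm2* S619L/+ placebo mice and 84.5 to 331 CPM in their WT mice. It was 275 to 1934 CPM in *Bin1* mck-/- placebo mice and 137 to 268 CPM in their WT mice. *Cilp* carried much of these sums, with a mean of 827 CPM in *Dnm2* S619L/+ placebo and 359 CPM in *Bin1* mck-/- placebo mice, so that the sums are not separate from its own change. Without *Cilp* they were 361 to 708 and 74.1 to 301 CPM in the *Dnm2* cohort and 162 to 1272 and 120 to 251 CPM in the *Bin1* cohort, where the groups then overlapped. Of 4 tested adipocyte genes, 2 were called higher in *Bin1* mck-/- placebo mice, against 2.61% of all genes called, with a median log2 fold change of 3.41. The summed level of the 5 listed adipocyte genes overlapped, with 231 to 392 CPM in these mice and 244 to 273 CPM in their WT mice. *Cfd*, a secreted protease of fat cells, had a mean of 39.7 CPM against 2.90 CPM in WT mice (log2 fold change of 3.77 ± 0.67, edgeR adjusted p of 0.0263). In *Dnm2* S619L/+ placebo mice none of 5 adipocyte genes was called by edgeR, with 1 at an unadjusted p under 0.05. The part of tendon or fat cells in the level of *Sox9* was not tested. Of 6 Schwann cell genes, which mark another source of SOX proteins in muscle, none was called in *Dnm2* S619L/+ mice by edgeR, where 1 had an unadjusted p under 0.05. That gene, *Pmp22*, was called higher in *Bin1* mck-/- mice (log2 fold change of 0.59 ± 0.14, adjusted p of 0.0424).

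Of the 7 tested members, 2 were called higher and none lower in *Dnm2* S619L/+ mice on placebo, where 21.9% of all genes tested were called. Beside *Sox9* this was *Col10a1*, the collagen of enlarging chondrocytes, at very low counts. *Col10a1* had 1, 0, 0 and 0 reads in the WT placebo mice and 12, 1, 1 and 7 reads in the *Dnm2* S619L/+ placebo mice, at most 0.277 CPM. Its pooled ratio was 42.3 (95% interval of 6.81 to 1751, counting error only), and the call (edgeR adjusted p of 0.0126) was lost among the mice without *Ddx3y* (adjusted p of 0.0516). In *Bin1* mck-/- mice, 1 of 4 tested members was called, *Sox9*, where 2.61% of all genes were called.

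*Acan*, the large proteoglycan that gives cartilage its resistance to pressure, rose from near 0 under tamoxifen in the *Dnm2* cohort. It had 0.111, 0.226, 0.0790 and 0.804 CPM in WT placebo mice and 38.7, 44.1, 19.6 and 30.4 CPM in WT tamoxifen mice. The *Dnm2* S619L/+ mice had 0.0676, 0, 0 and 0.158 CPM on placebo and 6.99, 19.5, 25.8 and 0.278 CPM on tamoxifen. All treated WT mice were far above all placebo mice, a separation found for 17.6% of all genes, whereas *Dnm2* S619L/+ tamoxifen mouse 4 stayed close to them. In WT mice the log2 fold change was 6.69 ± 1.01 (edgeR adjusted p of 0.000477), and 7.85 ± 1.196 without WT placebo mouse 4, the highest of its group. The mean level rose from 0.305 ± 0.338 CPM to 33.2 ± 10.7 CPM (SD, n = 4), or 109 times. In *Dnm2* S619L/+ mice the log2 fold change was 7.64 ± 1.26 (edgeR adjusted p of 0.00346), and 8.05 ± 0.79 without tamoxifen mouse 4. Since *Acan* passed the filter through tamoxifen mice and 1 WT placebo mouse, its separation and these calls are a description and no support for a difference. The mean level of tamoxifen-fed *Dnm2* S619L/+ mice was 13.2 ± 11.6 CPM, which overlapped that of tamoxifen-fed WT mice (log2 fold change of −1.35 ± 0.73, edgeR adjusted p of 0.350).

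*Hapln1*, which encodes the link protein that joins aggrecan to hyaluronan, changed in the same mice. It had 0.122, 0.0566, 0.0790 and 0.156 CPM in WT placebo mice and 5.61, 5.82, 3.01 and 4.86 CPM in WT tamoxifen mice. The level in *Dnm2* S619L/+ mice was 0.158, 0.144, 0 and 0.0791 CPM on placebo and 1.01, 2.75, 4.49 and 0.185 CPM on tamoxifen. Again mouse 4 was the lowest of the treated *Dnm2* S619L/+ mice, just above the placebo mice, and 4.02% of all genes were higher in every treated *Dnm2* S619L/+ mouse. On the log2 scale the change was 5.39 ± 0.77 in WT mice (edgeR adjusted p of 0.000351) and 4.29 ± 0.81 in *Dnm2* S619L/+ mice (edgeR adjusted p of 0.00713). Without tamoxifen mouse 4 the latter was 4.67 ± 0.57. Since *Hapln1* passed the filter through tamoxifen mice alone, its separation and its calls under tamoxifen are a description and no support for a difference. The interaction of genotype and tamoxifen did not pass the test for *Hapln1* (−1.10 ± 1.21, edgeR adjusted p of 0.755) or *Acan* (0.96 ± 1.91, edgeR adjusted p of 0.889).

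*Col2a1*, the main fibril collagen of cartilage, was also higher in tamoxifen-fed WT mice. It had 0.162, 0, 0 and 1.07 CPM on placebo and 4.16, 7.22, 2.45 and 2.66 CPM on tamoxifen. The groups did not overlap, as was the case for 17.6% of all genes tested. The fitted log2 fold change was 3.56 ± 0.95 (edgeR adjusted p of 0.0122), and 5.43 ± 1.04 without WT placebo mouse 4, which held 48 of the 64 reads of its group. Among the mice without *Ddx3y* it was 3.30 ± 1.14 and no longer passed (edgeR adjusted p of 0.0830). In *Dnm2* S619L/+ mice *Col2a1* had 0.991, 0.192, 1.67 and 0.198 CPM on placebo and 1.47, 2.75, 3.05 and 0.309 CPM on tamoxifen, and the groups overlapped (1.28 ± 0.89, edgeR adjusted p of 0.400).

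*Col10a1* was highest in tamoxifen-fed *Dnm2* S619L/+ mice, unlike *Acan*, *Hapln1* and *Col2a1*, whose means were highest in tamoxifen-fed WT mice. It had 3.19, 0.598, 1.72 and 0.771 CPM in *Dnm2* S619L/+ mice on tamoxifen, against 0.270, 0.0480, 0.0452 and 0.277 CPM on placebo. In WT mice on tamoxifen it had 0.121, 0.120, 0 and 0.138 CPM. Each treated *Dnm2* S619L/+ mouse, mouse 4 included, was above every mouse of the other groups, and 6.37% of all genes were higher in every one of them than in the WT tamoxifen mice. Because *Col10a1* passed the filter through these 4 mice alone, its separation and its calls in comparisons with them are a description and no support for a difference. The log2 fold change was 3.15 ± 0.63 against placebo and 3.90 ± 0.66 against WT mice on tamoxifen. Against WT placebo the pooled ratio was 384 (95% interval of 68.2 to 15266, counting error only), since 187 reads were set against 1 read. In WT mice, 14 reads on tamoxifen against 1 on placebo gave a pooled ratio of 24.04 (3.66 to 1017). That change was called (edgeR adjusted p of 0.0333) but was lost under 8 of 23 alternatives, with adjusted p of up to 0.0983.

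*Sox9* and *Col10a1* were the 2 of 7 tested members called when *Dnm2* S619L/+ mice on tamoxifen were compared with WT mice on tamoxifen, where 2.7% of all genes were called, with *Col10a1* counted as a description only. Under tamoxifen, 4 of 7 members were called higher in WT mice (*Acan*, *Hapln1*, *Col2a1* and *Col10a1*), where 27.7% of all genes were called. In *Dnm2* S619L/+ mice 3 were called higher (*Acan*, *Hapln1* and *Col10a1*), where 8.27% of all genes were called. All 3 passed the filter wholly or mostly through tamoxifen mice, so that these counts describe them and are no support for a pattern. When the 8 *Dnm2* S619L/+ mice were fitted alone, the log2 fold changes were 7.68 ± 1.47 for *Acan*, 4.35 ± 1.02 for *Hapln1* and 3.18 ± 0.71 for *Col10a1*, and none was called (edgeR adjusted p of 0.0619, 0.0841 and 0.0734). None was called among the mice without *Ddx3y*, with 2 placebo and 4 tamoxifen mice left. Tamoxifen-fed *Dnm2* S619L/+ mice differed from WT placebo mice in 5 of 7 members, where 28.9% of all genes were called. *Acan*, *Hapln1*, *Col10a1* and *Sox9* were higher and *Col9a1* was lower.

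**Figure D2:**
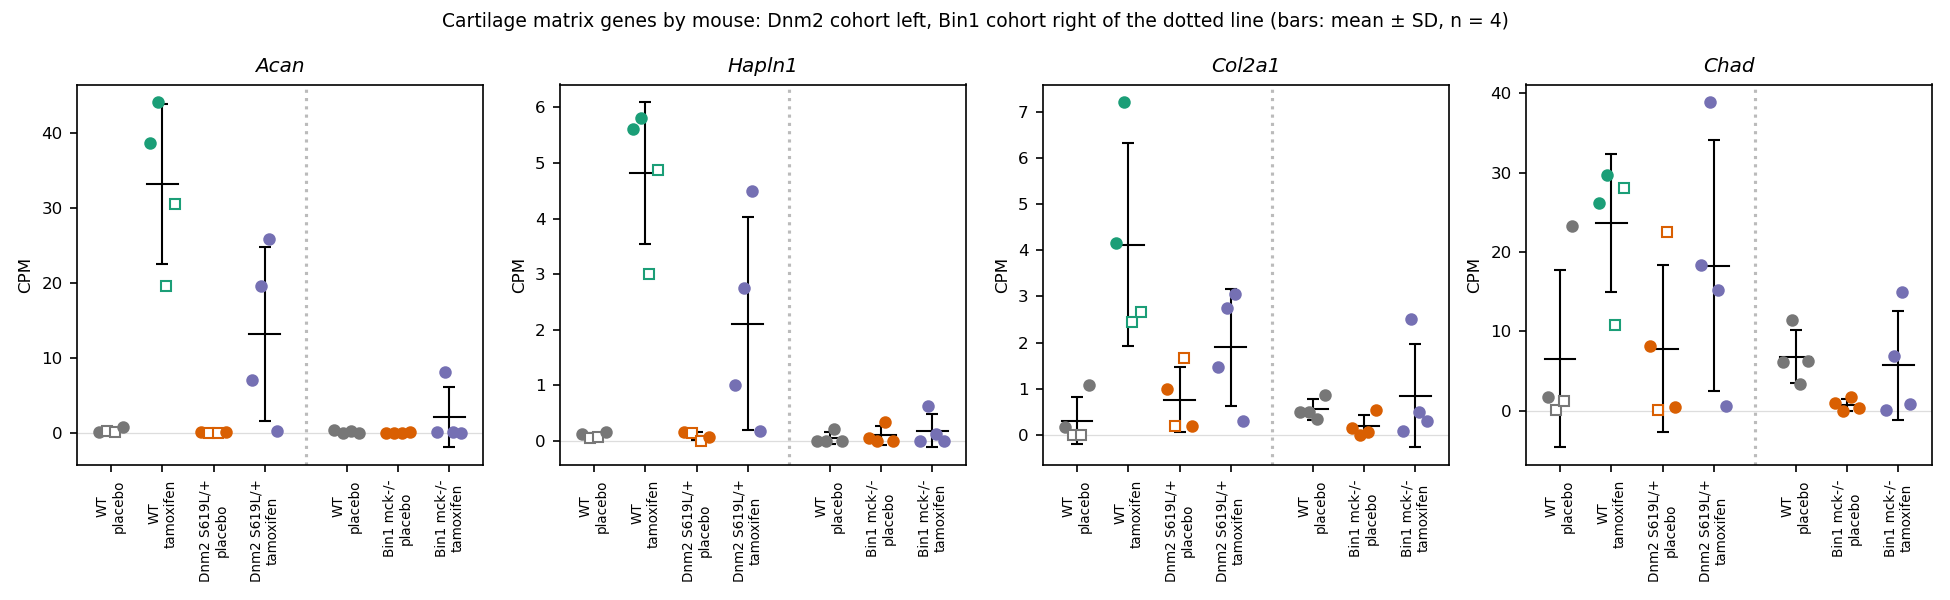
*Acan*, *Hapln1*, *Col2a1* and *Chad* in each mouse. The y axis is CPM on a linear scale that differs between panels, each point is 1 mouse, open squares are mice with reads of *Ddx3y* above 1 CPM, and bars are mean ± SD (n = 4). The WT tamoxifen mice lie above all placebo mice of their cohort for *Acan* (19.6 to 44.1 CPM) and *Hapln1* (3.01 to 5.82 CPM), and 1 *Dnm2* S619L/+ tamoxifen mouse lies near 0 in all 4 panels.

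In the *Bin1* cohort, nearly all reads of *Acan* under tamoxifen came from 1 mouse, with 267 of 273. *Acan* had 0.363, 0.0348, 0.256 and 0.0602 CPM in WT mice, at most 0.0798 CPM in *Bin1* mck-/- placebo mice, and 0.0871, 8.09, 0.155 and 0 CPM in *Bin1* mck-/- tamoxifen mice. Mouse 2, the library with high bone markers, also had the highest *Hapln1* of the cohort (0.636 CPM, against 0 to 0.348 CPM in the other 11 mice) and the highest *Col2a1* (2.51 CPM, against 0 to 0.873 CPM). Neither *Acan* nor *Hapln1* passed the filter there, and *Col2a1* was not called (log2 fold change of 2.15 ± 0.97, edgeR adjusted p of 0.227, and 0.62 ± 0.90 without mouse 2). None of the 4 tested members was called by edgeR under tamoxifen in *Bin1* mck-/- mice, where 3.13% of all genes were called. At an unadjusted p under 0.05 there were 3, and DESeq2 called 1, *Col9a1*.

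*Col9a1*, a chain of the type IX collagen that coats cartilage fibrils, followed another course. In the *Bin1* cohort it had 0.978, 1.81, 2.33 and 2.92 CPM in WT mice, 0.769, 1.16, 1.30 and 0.931 CPM in *Bin1* mck-/- placebo mice and 2.53, 0.969, 7.37 and 4.97 CPM in *Bin1* mck-/- tamoxifen mice. Of the tamoxifen mice, 3 were above every placebo mouse, and the fourth was mouse 2, in which *Acan* was high. The log2 fold change under tamoxifen was 1.93 ± 0.51 (edgeR adjusted p of 0.0544), and 2.26 ± 0.39 without mouse 2 (edgeR adjusted p of 0.00620). In the *Dnm2* cohort it had 2.17, 4.04, 6.01 and 1.41 CPM in WT placebo mice and 0.721, 0.480, 2.76 and 0.909 CPM in *Dnm2* S619L/+ placebo mice. The log2 fold change was −1.46 ± 0.52 (edgeR adjusted p of 0.0568), and it passed under 5 of 23 alternatives. Tamoxifen-fed mice had 2.93, 2.13, 2.07 and 3.10 CPM when WT and 0.889, 0.478, 1.44 and 0.617 CPM when *Dnm2* S619L/+, without overlap, at a log2 fold change of −1.59 ± 0.53 (edgeR adjusted p of 0.127). Non-overlapping groups with the lower level in *Dnm2* S619L/+ mice were found for 4.3% of all genes. The called fall against WT placebo (−1.95 ± 0.53, edgeR adjusted p of 0.0134) was lost with *Xist* as a covariate (adjusted p of 0.0832) and among the mice without *Ddx3y* (adjusted p of 0.132). The response of *Col9a1* to tamoxifen in disease mice was lower in the *Dnm2* than in the *Bin1* cohort by 2.40 ± 0.79 on the log2 scale, which did not pass the test (edgeR adjusted p of 0.0779).

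*Chad* encodes chondroadherin, a leucine-rich protein of cartilage and tendon to which cells attach, and its level spread widely within most groups. It had 1.71, 0.0283, 1.19 and 23.3 CPM in WT placebo mice, 26.2, 29.6, 10.8 and 28.05 CPM in WT tamoxifen mice, 8.20, 0.0480, 22.5 and 0.395 CPM in *Dnm2* S619L/+ placebo mice and 18.4, 38.9, 15.2 and 0.555 CPM in *Dnm2* S619L/+ tamoxifen mice. Groups overlapped in each comparison of the cohort. The log2 fold change under tamoxifen was 1.81 ± 1.35 in WT mice (edgeR adjusted p of 0.337), and 4.52 ± 1.51 without WT placebo mouse 4 (edgeR adjusted p of 0.0413). In the *Bin1* cohort it had 6.18, 11.4, 3.33 and 6.29 CPM in WT mice, 1.01, 0, 1.68 and 0.293 CPM in *Bin1* mck-/- placebo mice and 0.0871, 6.85, 15.0 and 0.877 CPM in *Bin1* mck-/- tamoxifen mice. All *Bin1* mck-/- placebo mice were below all WT mice, as was the case for 7.47% of all genes tested. The change of −3.19 ± 1.28 on the log2 scale missed the threshold (edgeR p of 0.0323, adjusted p of 0.199).

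*Matn1*, *Matn3* and *Cnmd* passed the filter in neither cohort. *Matn1*, a matrilin of mature cartilage, was at 0 reads in 25 of the 28 mice and at 1 read in the other 3. *Cnmd*, which encodes the cartilage inhibitor of vessel growth chondromodulin, had at most 6 reads per mouse. *Matn3*, another matrilin, had at most 12 reads per mouse, and its highest group was WT on tamoxifen, with 0.0804, 0.360, 0.188 and 0.345 CPM against 0.0405, 0, 0 and 0 CPM on placebo. The *Matn3* groups did not overlap, as was the case for 17.6% of all genes tested, but they held 30 and 4 reads in total. At the depth of WT placebo mouse 3, 3 reads equal 0.192 CPM before TMM scaling, above the lowest tamoxifen value. Pooled over mice, *Cnmd* had 7 reads in *Bin1* mck-/- placebo mice, 6 of them in mouse 1, and none in their WT mice. Since they did not pass the filter, no p is given for these 3 genes.

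**Figure D3:**
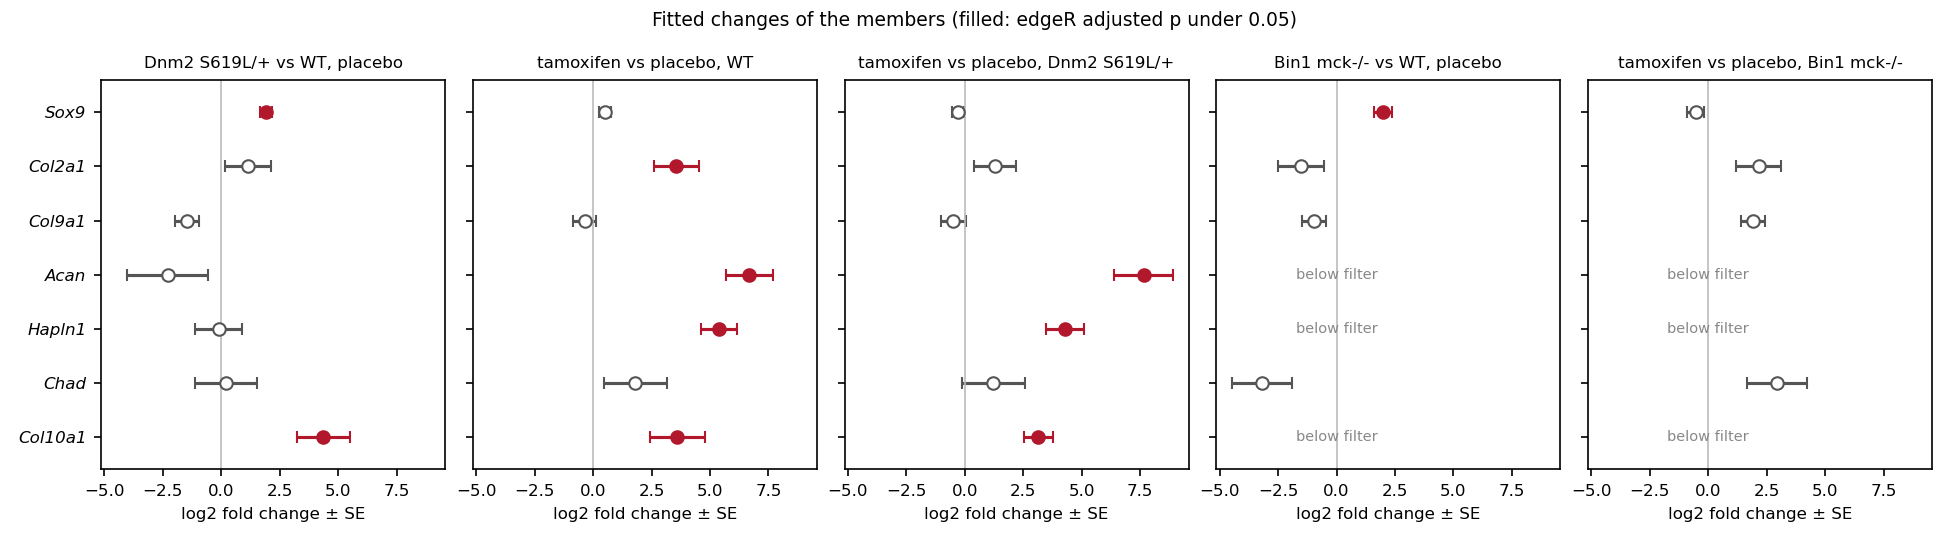
Fitted log2 fold changes of the 7 members that passed the filter in at least 1 cohort, with SE as bars, for 5 comparisons. Filled points have an edgeR adjusted p under 0.05, and the fitted changes of *Col10a1* against WT placebo depend on the prior count because that group held 1 read. *Sox9* is filled in both disease comparisons and in no tamoxifen comparison. *Acan*, *Hapln1* and *Col10a1* are filled for tamoxifen in WT and *Dnm2* S619L/+ mice. *Col10a1* passed the filter through *Dnm2* S619L/+ tamoxifen mice alone, *Hapln1* through tamoxifen mice alone and *Acan* through these and 1 WT placebo mouse.

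Levels of different genes were compared as CPM per kilobase of exon. In WT placebo mice of the *Dnm2* cohort, *Chad* had the highest mean (3.91 ± 6.67), followed by *Col9a1* (0.672 ± 0.406) and *Sox9* (0.369 ± 0.0597), and these neighbours overlapped. In WT mice on tamoxifen the order was *Chad* (14.1 ± 5.18), *Acan* (4.45 ± 1.43), *Hapln1* (0.817 ± 0.216), *Sox9* (0.515 ± 0.188), *Col9a1* (0.505 ± 0.106) and *Col2a1* (0.446 ± 0.238). *Chad* was above *Acan* in every mouse, and *Acan* was above *Hapln1*, whereas the last 4 overlapped with their neighbours. In *Bin1* mck-/- mice on placebo *Sox9* had the highest mean (0.959 ± 0.264), followed by *Chad* (0.443 ± 0.447) and *Col9a1* (0.205 ± 0.0463), and these neighbours overlapped too.

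Other genes of the cartilage matrix were called in part under tamoxifen in the *Dnm2* cohort. Of 16 tested in WT mice, 10 were higher and 1 lower, against 27.7% of all genes called, with a median log2 fold change of 2.02 against −0.04 for all genes. The smallest p belonged to *Col27a1* (3.84 ± 0.53, edgeR adjusted p of 0.000304), *Col11a1*, a chain of the type XI collagen of the fibril core (7.35 ± 1.04, adjusted p of 0.000345), *Bgn* (2.36 ± 0.36, adjusted p of 0.000510) and *Matn2* (2.39 ± 0.40, adjusted p of 0.000806). The 1 that was lower, named after its value was seen, was *Cytl1* (−1.02 ± 0.24, adjusted p of 0.00535). Of the same 16 genes, 5 were higher and 1 lower in *Dnm2* S619L/+ mice, against 8.27% of all genes called, led by *Col11a1* (4.75 ± 0.91, adjusted p of 0.00772) and *Col27a1* (2.57 ± 0.51, adjusted p of 0.00824). None of the 16 was higher and 1 was lower in *Bin1* mck-/- mice on tamoxifen, where 3.13% of all genes were called, *Cilp* (−2.92 ± 0.47, adjusted p of 0.0134). The cartilage-restricted genes *Ucma*, *Snorc* and *Epyc* stayed near 0, with at most 15 reads over the 4 mice of any group.

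Several regulators of chondrocytes were higher under tamoxifen, although *Sox9* was not called. Of 13 regulators tested in WT mice on tamoxifen, 8 were higher and none lower, against 27.7% of all genes called, led by *Runx2*, which also directs osteoblasts (log2 fold change of 4.78 ± 0.65, edgeR adjusted p of 0.000291), the growth factor receptor *Fgfr3* (2.94 ± 0.42, adjusted p of 0.000351), the parathyroid hormone receptor *Pth1r* (4.20 ± 0.64, adjusted p of 0.000502) and its ligand *Pthlh* (2.13 ± 0.37, adjusted p of 0.000914). The same 4 genes were those called higher of 13 in *Dnm2* S619L/+ mice, against 8.27% of all genes, led by *Pthlh* (2.41 ± 0.38, adjusted p of 0.00304). *Pthlh* was also the only one of 13 called in *Bin1* mck-/- mice on tamoxifen (1.62 ± 0.38, adjusted p of 0.0314), against 3.13% of all genes. *Runx2* also stands on the list of 15 bone genes, so that the counts of regulators and of bone genes are not separate.

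Several genes of cartilage breakdown were higher in the *Dnm2* cohort. Of 7, 5 were higher and none lower in WT mice on tamoxifen, against 27.7% of all genes called. *Mmp13*, the collagenase of enlarging chondrocytes and osteoblasts, rose by 10.53 ± 1.196 on the log2 scale (edgeR adjusted p of 0.000177), and *Adamts4*, an aggrecan-cutting enzyme, by 4.72 ± 0.83 (adjusted p of 0.00106). *Timp1*, an inhibitor of such enzymes, was also among the 5 (log2 fold change of 5.59 ± 0.68, adjusted p of 0.000233). Of the 7 genes, 3 were higher in *Dnm2* S619L/+ mice, against 8.27% of all genes called, and *Mmp13* rose by 10.23 ± 1.204 (adjusted p of 0.000646). None of the 7 was higher and 1 was lower in *Bin1* mck-/- mice on tamoxifen, against 3.13% of all genes called, *Adamts5*, another aggrecan-cutting enzyme (−0.72 ± 0.19, adjusted p of 0.0466). Some paralogs of the members were also higher, with 7 of 13 higher in WT mice on tamoxifen, against 27.7% of all genes called. They were led by *Hapln4* (6.41 ± 0.88, adjusted p of 0.000291) and the aggrecan relative *Vcan* (1.83 ± 0.25, adjusted p of 0.000291). In *Dnm2* S619L/+ mice on tamoxifen 6 of 13 were higher and none lower, against 8.27% of all genes called. None of 12 paralogs was called by edgeR in *Bin1* mck-/- mice on tamoxifen, against 3.13% of all genes called, with 3 at an unadjusted p under 0.05.

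Markers of bone and osteoclasts moved with *Acan* and *Hapln1* under tamoxifen in the *Dnm2* cohort, and those of tendon were called higher mainly in its WT mice. In WT mice 11 of 13 tested bone genes, 7 of 8 osteoclast genes and 8 of 10 tendon genes were higher and none lower, with median log2 fold changes of 4.94, 6.12 and 3.01, where 27.7% of all genes were called. The counts in *Dnm2* S619L/+ mice were 11 of 13, 6 of 8 and 1 of 10, with medians of 3.20, 3.10 and 0.16, where 8.27% of all genes were called. Genes of these lists may have passed the filter through the tamoxifen mice, so that the counts are a description and no support for a pattern. Under tamoxifen in *Bin1* mck-/- mice, where 3.13% of all genes were called, none of 7 bone genes was called by edgeR (1 at an unadjusted p under 0.05), 1 of 7 osteoclast genes was higher and 1 of 10 tendon genes was lower. Among bone genes, *Tnn* rose by 11.44 ± 1.11 and *Sp7*, the transcription factor of osteoblasts, by 8.10 ± 0.90 on the log2 scale in WT mice (edgeR adjusted p of 9.05e-05 and 0.000177), and among osteoclast genes *Ctsk*, the collagen-cutting protease, by 5.77 ± 0.74 (adjusted p of 0.000253). The summed level of the 15 bone genes was 160 to 482 CPM in WT placebo and 4445 to 10112 CPM in WT tamoxifen mice, that of the 8 osteoclast genes 7.27 to 11.9 and 264 to 1533 CPM, and that of the 10 tendon genes 84.5 to 331 and 1816 to 4011 CPM. The summed level of the 10 skeletal muscle genes went the other way, with 133310 to 164231 CPM in WT placebo and 106399 to 118962 CPM in WT tamoxifen mice, without overlap. Of these 10, 2 were called lower in WT mice on tamoxifen, against 27.7% of all genes called. None was called by edgeR in *Dnm2* S619L/+ mice on tamoxifen against their placebo mice, where 8.27% of all genes were called. In *Bin1* mck-/- mice on tamoxifen 1 was called higher and none lower, against 3.13% of all genes. Against WT placebo mice, which differ in genotype as well as diet, 6 were lower in *Dnm2* S619L/+ tamoxifen mice, where 28.9% of all genes were called.

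Tamoxifen mice with little *Acan* also had low sums of bone and osteoclast genes. *Dnm2* S619L/+ tamoxifen mouse 4, with 0.278 CPM of *Acan*, had a summed 24.7 CPM of osteoclast genes against 250 to 728 CPM in mice 1 to 3, and 1179 CPM of tendon genes against 1773 to 3001 CPM. Without *Cilp* the tendon sum was 357 CPM in mouse 4, against 1188 to 2494 CPM in mice 1 to 3. In *Dnm2* S619L/+ placebo mice it was 361 to 708 CPM. *Bin1* mck-/- tamoxifen mouse 2, with 8.09 CPM of *Acan*, had 183 CPM of osteoclast genes and 1264 CPM of tendon genes, against 6.17 to 18.2 CPM and 131 to 335 CPM in mice 1, 3 and 4. At most 2 of the 15 bone genes and none of the 8 osteoclast genes were at 0 in any WT tamoxifen mouse, while up to 5 bone genes and 1 osteoclast gene were at 0 in a WT placebo mouse. Of 12 genes of marrow and blood, 5 were tested and none was called by edgeR under tamoxifen in WT or *Dnm2* S619L/+ mice, with 0 and 1 at an unadjusted p under 0.05. Over all genes 27.7% and 8.27% were called. The median log2 fold changes of the 5 were 0.86 and 1.03. The summed level of the 12 was 315 to 1323 CPM in WT placebo and 705 to 2293 CPM in WT tamoxifen mice. It was 307 to 745 CPM in *Dnm2* S619L/+ placebo and 540 to 1723 CPM in *Dnm2* S619L/+ tamoxifen mice, and the groups overlapped in both genotypes. The part of bone, osteoclast, tendon or muscle cells in the level of the members was not tested.

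**Figure D4:**
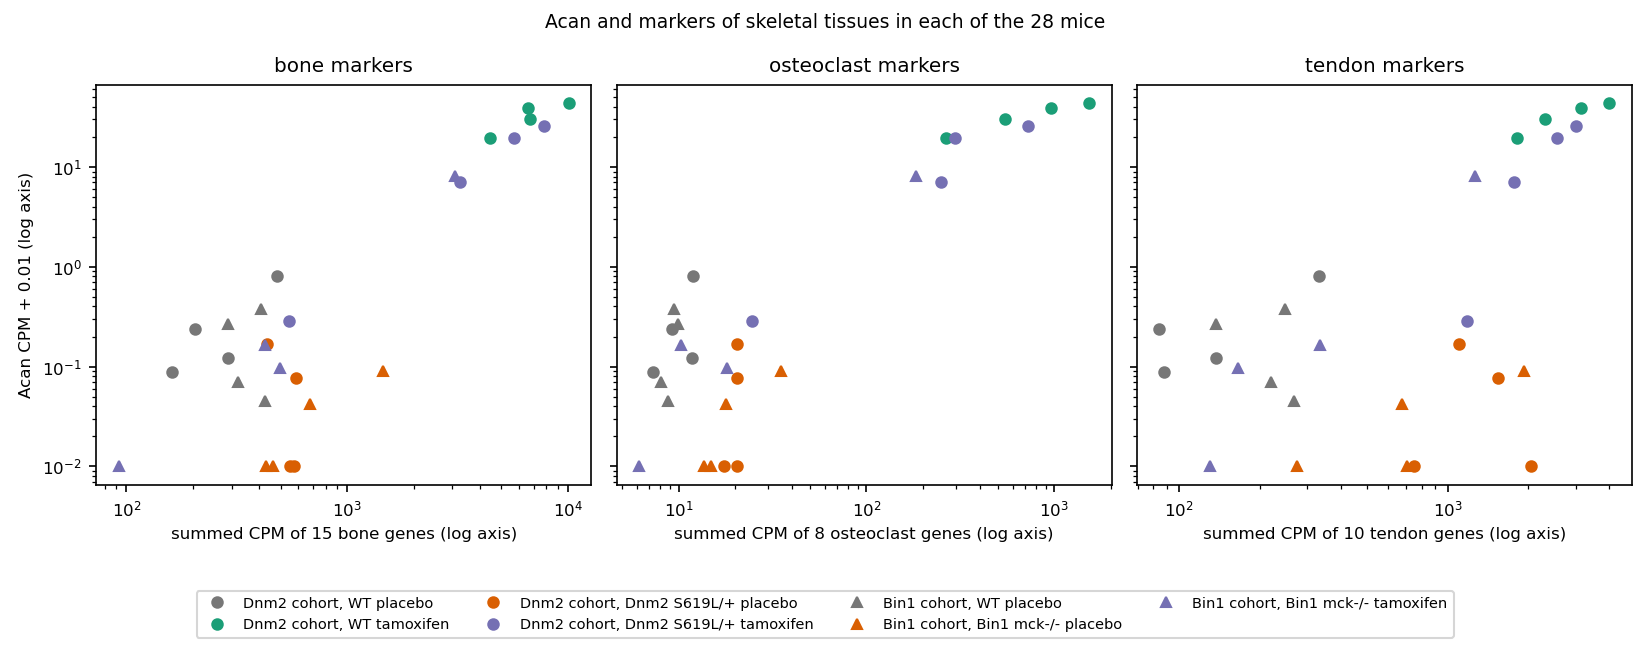
*Acan* against the summed level of 15 bone, 8 osteoclast and 10 tendon genes in each of the 28 mice. Both axes are CPM on log scales, 0.01 was added to *Acan* so that mice at 0 can be drawn, colours are groups, and triangles are mice of the *Bin1* cohort. The 8 mice with *Acan* above 5 CPM are all tamoxifen mice and have bone gene sums above 3000 CPM, which no other mouse reaches.

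**Figure D5:**
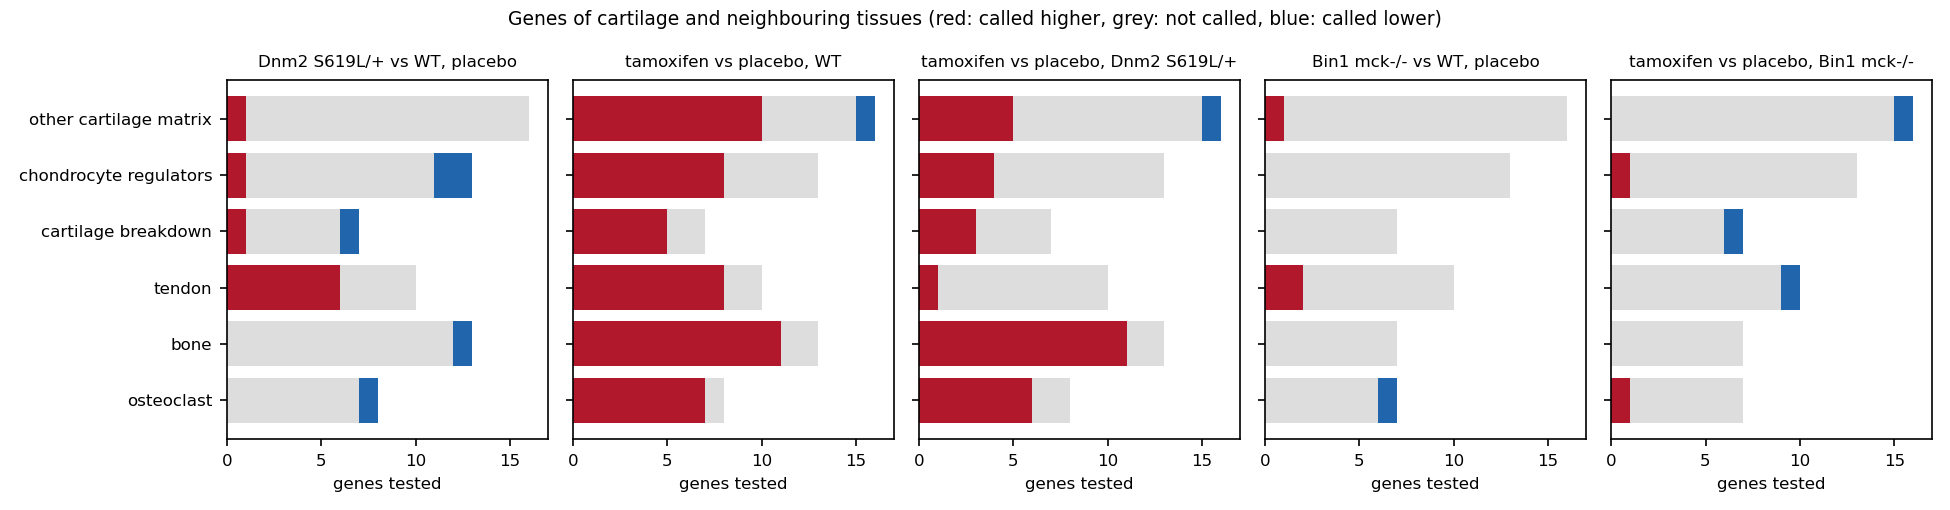
Numbers of genes called higher (red), not called (grey) or called lower (blue) by edgeR at an adjusted p under 0.05, for 6 gene lists in 5 comparisons. The x axis is the number of genes of a list that passed the filter. Bone genes are called higher in 11 of 13 cases for tamoxifen in WT and in *Dnm2* S619L/+ mice, where 27.7% and 8.27% of all genes were called. In the *Dnm2* disease comparison 0 of 13 are higher and 1 is lower, against 21.9% of all genes called. In that of *Bin1* none of 7 is called, against 2.61%. Up to 5 of 15 bone genes were at 0 in a placebo mouse of the *Dnm2* cohort, and such genes could hardly be called in its disease comparison.

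The genes whose pattern across mice was closest to a member were ranked by the root mean square difference of log2 CPM after each gene was centred on its mean. Over the 16 mice of the *Dnm2* cohort, those closest to *Acan* were *Lrrc15* (0.832), *Sp7* (0.925) and *Fgfr2* (0.998), against a median of 3.67 over all genes. Those closest to *Hapln1* were *Nyap2* (0.546), *Gxylt2* (0.547) and *Adam12* (0.555), against a median of 2.39, and those closest to *Col2a1* were *Comp* (0.658), *Cilp2* (0.703) and *Faim2* (0.710), against 2.14. For *Sox9* they were *Nfkb2* (0.286), *Plekho1* (0.314) and *Dok5* (0.318) in the *Dnm2* cohort, against 0.909, and *Sh3bp2* (0.258), *Sgms2* (0.274) and *Clec12a* (0.366) over the 12 mice of the *Bin1* cohort, against 1.02. *Comp* and *Cilp2* are themselves matrix proteins of cartilage, and no gene was named for both cohorts of *Sox9*.

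No member was called for a difference of effects. None of the 7 was called by edgeR for the interaction of genotype and tamoxifen in the *Dnm2* cohort, where 0.259% of all genes were called, and 1, *Sox9*, had an unadjusted p under 0.05. None was called for the difference of the disease effects between the cohorts, where 0.312% of 16036 genes were called, nor for the difference of the tamoxifen effects in disease mice, where 1.71% were called. At an unadjusted p under 0.05 there was 1 in each, *Col10a1* and *Col9a1*, and limma-voom called none. For *Col10a1*, which had at most 3 reads in a placebo mouse of the *Bin1* cohort, the disease effects differed by 4.87 ± 2.22 on the log2 scale (edgeR p of 0.0373, adjusted p of 0.330). In tamoxifen-fed *Bin1* mck-/- mice against WT placebo none of 4 members was called by edgeR, where 0.849% of all genes were called, 1 had an unadjusted p under 0.05 and DESeq2 called 1, *Sox9* in both cases.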

How the data were processed

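Strand-specific libraries of polyadenylated RNA from TA muscle of 28 mice in 7 groups of 4 were used, and groups were taken from the sample labels. For each cohort the authors deposited a table of raw counts, with a whole number for each Ensembl gene and mouse. The submitters' processing notes name the build mm39 and the tools STAR 2.5.3, Bowtie 1.2.2, cutadapt 1.10, bcl2fastq 2.20.0.422 and HTSeq 0.6.1p1, with no role. The table of the *Bin1* cohort holds 4 lines that name no gene, with 22.0% to 30.8% of all counts per mouse, which stayed out of library sizes and tests. Identifiers were named with GENCODE M21, which held 52083 of them in each table, and its exon lengths were used for levels per kilobase.

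Each cohort was fitted by itself, with all its mice, by edgeR 4.0.16 in R 4.3.3 (TMM, default filter on low counts, robust quasi-likelihood test). SE is the log2 fold change divided by the square root of the F statistic. Differences between cohorts were fitted over both tables. Pooled ratios have exact 95% intervals. Counts depend on the depth of each mouse, and intervals cover counting error only. Each pair of replicate mice was further apart than counting error allows (chi-square per gene of at least 15.5), so none was treated as 1 library. The labels do not say that mice of a group came from separate litters, and p-values measure the spread between these mice.

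The members and gene lists were chosen with earlier results of these data known. Named are all members, up to 4 tested genes of each other list with the smallest p in a comparison, list members at 0, the markers of muscle and of sex, and for up to 4 members the 3 genes most like them. A gene named outside this rule is said to be so. The model fits were tested on simulated data. The alternatives were DESeq2 1.42.0, RLE normalization, no filter, only the groups compared, *Xist* as a covariate, the replicate number as a block, CPM on raw totals, limma-voom (limma 3.58.1) for differences between cohorts, and leaving out each mouse. The fit of mice without *Ddx3y* was added after the data were seen.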

Additional observations from a re-analysis of the deposited data

Results flagged for a closer look

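In 40 groups of 4 mice with at least 20 reads of a member, a mouse was looked for whose gap to the nearest other mouse exceeded the critical value of Dixon for the range of its group, which chance gives for about 1 in 20 groups, and 3 were found. *Acan* in *Bin1* mck-/- tamoxifen mouse 2 was 8.09 CPM, against 0 to 0.155 CPM in the other 3. *Chad* in WT placebo mouse 4 of the *Dnm2* cohort was 23.3 CPM, against 0.0283 to 1.71 CPM, and *Col2a1* in the same mouse was 1.07 CPM, against 0 to 0.162 CPM. In that mouse the summed tendon genes were 331 CPM, against 84.5 to 138 CPM in the other WT placebo mice, and the summed bone genes were 482 CPM, against 160 to 289 CPM. The part of these tissues in the values was not tested.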

How the results depend on the processing

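The number of members called kept within 1.5 times of its value under all alternatives but the following, and the cause was not tested. With only the groups compared it was 0 for tamoxifen in *Dnm2* S619L/+ mice. Among the mice without *Ddx3y*, an alternative chosen after seeing the data that leaves 10 of 16 mice, it was 1 for *Dnm2* S619L/+ against WT on placebo, 2 for tamoxifen in WT mice, 0 for tamoxifen in *Dnm2* S619L/+ mice, 2 for *Dnm2* S619L/+ tamoxifen against WT placebo and 1 for the genotypes on tamoxifen. DESeq2 called 1 for tamoxifen in *Bin1* mck-/- mice and 1 for *Bin1* mck-/- tamoxifen against WT placebo, where 1 was also called without the filter. Leaving out single mice gave 2 to 3, 3 to 4, 3 to 3, 5 to 6 and 1 to 2 in the same order of *Dnm2* comparisons, and 0 to 1 in each *Bin1* comparison. The lower count for the genotypes on tamoxifen arose without WT tamoxifen mouse 1 or 3 or *Dnm2* S619L/+ tamoxifen mouse 1.

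Directions turned only for changes that were not called. With *Xist* as a covariate *Col9a1* was 0.0497 for tamoxifen in *Dnm2* S619L/+ mice and 0.0556 for the interaction, and in *Bin1* mck-/- tamoxifen against WT placebo *Col2a1* was −0.72 and *Chad* 0.66. Among the mice without *Ddx3y*, *Chad* was −1.45 for *Dnm2* S619L/+ against WT and 0.86 for the interaction, and *Col9a1* was 0.52 for tamoxifen in WT and 0.10 in *Dnm2* S619L/+ mice. Leaving out single mice moved *Chad* from −1.12 to 2.91 for *Dnm2* S619L/+ against WT on placebo, from −1.05 to 0.0245 on tamoxifen, from −3.29 to 0.73 for the interaction and from −1.35 to 0.15 for *Bin1* mck-/- tamoxifen against WT. It moved *Col9a1* from −0.63 to 0.0313 for tamoxifen in WT, from −0.84 to 0.26 in *Dnm2* S619L/+ mice and from −0.53 to 0.62 for the interaction. The ranges were −0.58 to 0.22 for *Hapln1* in *Dnm2* S619L/+ against WT, −0.21 to 1.76 for *Acan* in the interaction and −0.90 to 1.003 for *Col2a1* in *Bin1* mck-/- tamoxifen against WT.

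The deviations of mice with the same replicate number were correlated at −0.325 to 0.335. The correlation was over 0.1 in 9 of 24 pairs in the *Dnm2* cohort and in 1 of 4 in the *Bin1* cohort. With the replicate number as a block 3, 4, 3, 5, 2 and 0 members were called in the *Dnm2* comparisons, the last being the interaction, and 0 for tamoxifen in *Bin1* mck-/- mice. No block could be fitted for *Bin1* mck-/- against WT, whose numbers differ. Of the members' single changes, 1109 kept their direction and side of the threshold, 29 lost and 16 gained a call, and 27 turned. Depth limits every member that had a few reads per mouse.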
